A study of Mus musculus with 16 samples.

Results

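The 10 genes described here, of 55421 gene IDs in the count table, encode proteins of the microvillus and brush border: Cdhr2, Cdhr5, Pls1, Myo7b, Ush1c, Anks4b, Espn, Vil1, Myo1a and Ezr. They were chosen by their function together with the measured difference between HIRA knockout (KO) and control livers, which was already known for Cdhr2 and Pls1, so their HIRA KO values are given as a description and the tests concern regeneration. PolyA RNA of whole liver tissue from male C57BL/6 mice had been sequenced in 16 libraries, 4 for each combination of genotype (control or HIRA KO) and time (before or after regeneration). HIRA is the histone chaperone that deposits H3.3 independently of replication.

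All mice had received an AAV8 vector in which the hepatocyte promoter Tbg drives the nuclease or recombinase, at an age of 6 months. Controls were wildtype mice given Tbg-Cre, or wildtype mice given saCAS9 with a guide to Rosa26. The HIRA KO mice were HIRA fl/fl mice given Tbg-Cre, or wildtype mice given saCAS9 with a guide to HIRA, with 2 libraries per approach in every group. Liver lobes resected 4 weeks after injection were the tissue before regeneration, and the liver remaining 5 days after resection was the tissue after it. The lobe, the way of collection and the time therefore changed together and cannot be told apart. The columns of the deposited tables give the group and a running number from 1 to 4, but not the approach or the mouse, so libraries are named here by that number, which was not used to pair them, and p-values measure only the spread between these libraries. In bulk liver, fewer cells of a type and less RNA per cell cannot be told apart either.

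Microvilli are finger-like protrusions of the cell surface, each built on a core of parallel actin filaments. Actin bundling proteins hold the core together, motor proteins and linker proteins tie it to the membrane, and protocadherins at the tips join neighbouring microvilli through an adhesion complex with a scaffold and a motor of its own. The brush border of the intestine and of the kidney tubule is the dense form, and in liver microvilli line the bile canaliculi and the sinusoidal face of hepatocytes as well as the apical face of cholangiocytes.

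Total counts per library were between 15103059 and 21738619. Hira itself had a mean of 3.54 ± 0.57 CPM (gene counts scaled to a common library size, with TMM factors; SD, n = 4) in HIRA KO before regeneration against 5.77 ± 0.45 in control, or 61.4% of control, and 62.0% after regeneration, with no overlap of libraries at either time (two-sided exact permutation test, p = 0.0286, the smallest that 4 against 4 can give). Hepatocyte markers were abundant in every library, with a summed level of 110978 to 172799 CPM over 13 genes. The HIRA KO libraries fell apart by number at both times: over all genes, a chi-square comparison of counts gave 17.2 per degree of freedom between libraries 1 and 2 and 12.4 between 3 and 4 before regeneration, but 71.9 to 93.7 across these pairs, and 45.3, 18.1 and 116 to 135 after regeneration, against 19.9 to 77.8 among controls. Controls after regeneration divided in the same way but less strongly, at 31.3 between libraries 1 and 2, 24.7 between 3 and 4, and 39.4 to 77.8 across. In control before regeneration these values were 19.9, 43.0 and 31.8 to 52.9. HIRA KO values that rest on libraries 1 and 2 are therefore given per library and also without them, a setting that was chosen after seeing the data. In that setting all control libraries were kept, those numbered 1 and 2 included, so differences between controls by number also enter its values. Whether this division of the HIRA KO libraries is the one between the Tbg-Cre and saCAS9 approaches is not known, so approach and library number cannot be told apart in those values.

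Promoter sequences are shown for the 4 genes on which the values below turn, Cdhr2 and Pls1, which were high in all HIRA KO libraries, Vil1, which was high in HIRA KO libraries 1 and 2, and Anks4b, which fell with regeneration in control. Each is the stretch from 250 bases before to 50 after a RefSeq gene start on GRCm38.p6, printed 5′ to 3′ on the strand of the gene, namely chr13:54701213-54701512 (+) for Cdhr2, chr9:95845230-95845529 (-) for Pls1, chr1:74409134-74409433 (+) for Vil1 and chr7:120173608-120173907 (+) for Anks4b. Capitals mark matches on either strand to 1 of 3 motifs of liver or general promoters, CAAAG (the core of HNF4 sites, CTTTG on the other strand), GTTAATN (HNF1, NATTAAC on the other strand) and GGGCGG (SP1, CCGCCC on the other strand), none of which overlap each other in these windows.
Cdhr2: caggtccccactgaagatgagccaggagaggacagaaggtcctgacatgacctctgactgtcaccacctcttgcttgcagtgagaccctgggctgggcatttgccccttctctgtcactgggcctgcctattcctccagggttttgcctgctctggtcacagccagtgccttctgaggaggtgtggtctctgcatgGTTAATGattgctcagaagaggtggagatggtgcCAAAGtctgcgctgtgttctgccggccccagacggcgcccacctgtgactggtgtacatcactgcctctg
Pls1: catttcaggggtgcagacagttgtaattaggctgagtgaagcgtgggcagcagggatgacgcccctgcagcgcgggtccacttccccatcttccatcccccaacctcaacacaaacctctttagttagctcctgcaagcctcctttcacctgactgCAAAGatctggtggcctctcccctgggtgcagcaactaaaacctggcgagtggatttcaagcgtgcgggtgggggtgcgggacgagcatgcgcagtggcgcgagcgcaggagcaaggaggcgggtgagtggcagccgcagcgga
Vil1: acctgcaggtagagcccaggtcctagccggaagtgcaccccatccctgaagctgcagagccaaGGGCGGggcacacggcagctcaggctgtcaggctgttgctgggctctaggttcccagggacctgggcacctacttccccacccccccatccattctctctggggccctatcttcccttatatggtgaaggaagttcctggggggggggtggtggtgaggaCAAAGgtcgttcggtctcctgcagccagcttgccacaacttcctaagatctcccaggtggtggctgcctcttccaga
Anks4b: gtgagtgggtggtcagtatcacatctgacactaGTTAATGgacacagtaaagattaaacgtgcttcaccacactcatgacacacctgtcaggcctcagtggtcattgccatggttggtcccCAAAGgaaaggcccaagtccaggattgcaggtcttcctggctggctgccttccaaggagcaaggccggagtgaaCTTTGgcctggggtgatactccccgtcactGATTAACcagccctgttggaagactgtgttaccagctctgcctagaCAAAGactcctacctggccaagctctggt

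The Cdhr2 window held 1 HNF4 match and 1 HNF1 match, and the Pls1 window held 1 HNF4 match. The Vil1 window had 1 HNF4 and 1 SP1 match, whereas Anks4b had 3 HNF4 and 2 HNF1 matches, the most among the members for both motifs together. Of the 9 members whose windows were searched, 6 held CAAAG and 2 held GTTAATN, where 54.0% and 7.11% of all 32544 promoter windows of this length did. SP1 letters stood in 4 of the 9 members and in 35.9% of all windows. The letters TTTATNG of the intestinal factor CDX were found in 1 member, Espn, and in 10.8% of all windows. None of the 9 members held the letters AGATAA of GATA factors, which were in 11.2% of windows. Likewise none held the E-box CACGTG, found in 7.17% of windows, or the TATA box letters TATAAA, found in 13.6%. Espn had 3 windows and counted as holding a motif if any did. A match is a description of the letters and not a site of binding.

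Levels between genes can be compared only per length, and on the deposited FPKM scale Cdhr5 and Anks4b stood far above the other members in all 4 groups. Cdhr5, a protocadherin of the tip links, had a mean level of 31.3 ± 8.9 FPKM in control before regeneration (SD, n = 4), and Anks4b, the ankyrin repeat scaffold of the same complex, 22.1 ± 2.9. Ezr, the ezrin linker between membrane and actin, followed at 1.50 ± 0.32, then Espn (espin, an actin bundler) at 0.91 ± 0.50 and Pls1 (plastin 1, an actin bundler) at 0.26 ± 0.14. Vil1, Ush1c, Myo1a, Cdhr2 and Myo7b followed with means between 0.0124 and 0.153 FPKM. Cdhr5 and Anks4b, Ezr and Espn, and each pair of neighbours among the last 5 genes differed by less than the sum of their SDs.

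Among the members of this lowest group, Ush1c and Myo1a had an FPKM in libraries where their count was 0, so their FPKM was not counts divided by length. With CPM per kilobase of annotated exon in place of FPKM, the order Cdhr5, Anks4b, Ezr was the same in control before regeneration, and Pls1 came next, ahead of Espn. In HIRA KO after regeneration Pls1 reached 3.47 ± 2.22 FPKM, beside 3.45 ± 1.44 for Ezr, and Cdhr2 reached 1.81 ± 0.95, where controls after regeneration held 0.18 ± 0.06 FPKM of Cdhr2.

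Cdhr2 was higher in every HIRA KO library than in every control library at the same time, at both times. Cdhr2 is the protocadherin that binds Cdhr5 between neighbouring microvillus tips. Its gene (ENSMUSG00000034918.8) lies on the plus strand of GRCm38 at chr13:54701461-54736662, where no other annotated gene overlaps it. In control before regeneration, libraries 1 to 4 held 0.298, 0.323, 0.172 and 0.0592 CPM of Cdhr2, or between 1 and 6 reads each. The HIRA KO libraries before regeneration held 2.86, 4.20, 2.24 and 1.75 CPM.

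After regeneration the control libraries held 0.752, 0.688, 1.36 and 0.432 CPM of Cdhr2 and the HIRA KO libraries 15.2, 9.90, 5.36 and 5.18. The lowest HIRA KO library therefore lay above the highest control library at each time, with libraries 1 and 2 the highest of their group. On the log2 scale the fitted difference between HIRA KO and control was 3.63 ± 0.51 (standard error) before and 3.46 ± 0.43 after regeneration. Without HIRA KO libraries 1 and 2 it was 3.16 and 2.72, so the direction did not rest on those libraries.

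Pls1 showed the same order of groups from a higher base. Plastin 1, or fimbrin, crosslinks the actin filaments of the microvillus core. The gene (ENSMUSG00000049493.13) lies on the minus strand at chr9:95752642-95845311. Control libraries 1 to 4 held 1.54, 0.861, 1.03 and 0.533 CPM of Pls1 before regeneration, and HIRA KO libraries 9.37, 9.27, 5.23 and 9.77.

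The controls after regeneration held 2.07, 3.67, 0.654 and 0.768 CPM of Pls1, and the HIRA KO libraries 18.5, 24.5, 8.58 and 5.90. The groups did not overlap at either time, and after regeneration libraries 1 and 2 stood above 3 and 4 in both genotypes. The fitted log2 difference between HIRA KO and control was 3.06 ± 0.58 before and 3.02 ± 0.56 after regeneration, and 2.90 and 2.06 without HIRA KO libraries 1 and 2. These last values still compare with all controls, the higher control libraries 1 and 2 after regeneration included.

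Vil1 separated the groups too, but nearly all of its level in HIRA KO came from libraries 1 and 2. Villin bundles and severs actin in the microvillus core, and its gene (ENSMUSG00000026175.12, chr1:74409376-74435559, plus strand) overlaps Usp37 on the opposite strand. Before regeneration the HIRA KO libraries held 10.1, 8.80, 0.748 and 1.06 CPM of Vil1 against 0.118 to 0.484 in control. After regeneration they held 5.21, 6.35, 0.522 and 0.557 CPM against 0.125 to 0.327. Libraries 3 and 4 were thus just above the control range, with 10 to 17 reads each, and libraries 1 and 2 were far above it. The fitted log2 difference was 3.86 ± 1.03 before and 3.81 ± 1.10 after regeneration, and fell to 1.35 and 1.28 without libraries 1 and 2.

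Myo7b, the motor of the tip-link complex, had the same 2 high libraries at each time but no separation of the groups. The gene (ENSMUSG00000024388.11) is overlapped by the antisense gene Gm16344, and as it is not stated whether strand was used in counting, their reads may not be separable. HIRA KO libraries 1 to 4 held 2.28, 2.87, 0.272 and 0.251 CPM of Myo7b before regeneration, where controls held 0.0995 to 0.515. After regeneration they held 11.2, 10.4, 1.38 and 0.557 CPM, where controls held 0.384 to 1.32. Libraries 3 and 4 lay within the control range before regeneration, and library 4 did so after it. The fitted log2 difference of 2.21 ± 1.08 before regeneration became -0.21 without libraries 1 and 2, and that of 2.85 ± 0.95 after regeneration became 0.29.

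**Figure D1:**
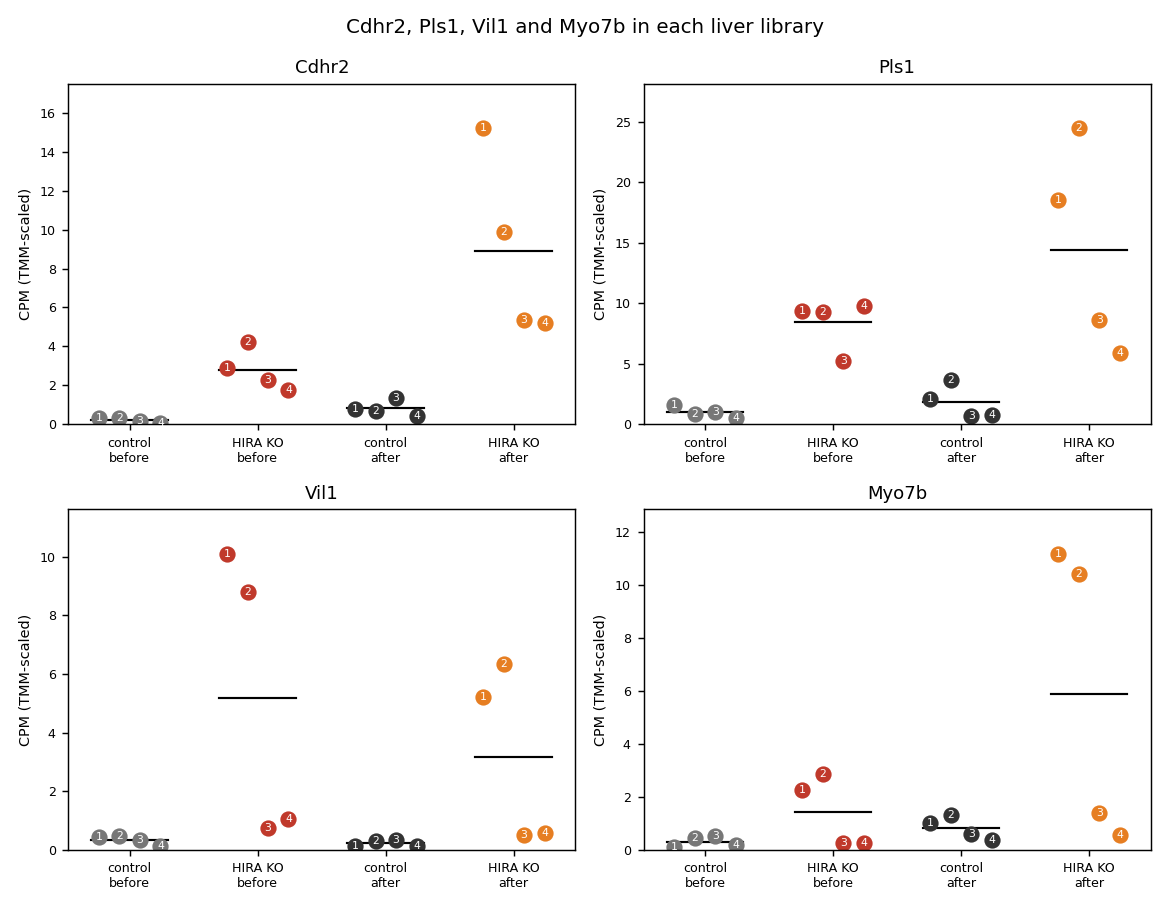
Level in CPM (TMM-scaled, linear axis from 0) of Cdhr2, Pls1, Vil1 and Myo7b in each of the 16 libraries, by group; the number in a point is the library's running number and the bar is the group mean. Cdhr2 and Pls1 lie above control in all 8 HIRA KO libraries, whereas Vil1 and Myo7b are high mainly in HIRA KO libraries 1 and 2.

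The abundant partner of Cdhr2, Cdhr5, overlapped between genotypes at both times. Its gene (ENSMUSG00000025497.15) lies at chr7:141269083-141276786 on the minus strand. Controls before regeneration held 101, 105, 88.3 and 56.2 CPM of Cdhr5 and HIRA KO libraries 168, 189, 89.6 and 107. After regeneration the controls held 132, 133, 155 and 103 CPM and the HIRA KO libraries 209, 171, 134 and 176. Before regeneration HIRA KO libraries 1, 2 and, narrowly, 4 were above every control library and library 3 was not, and after regeneration library 3 was again the lowest. The fitted log2 difference was 0.66 ± 0.24 before and 0.40 ± 0.23 after, or 0.16 and 0.26 without libraries 1 and 2.

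Anks4b overlapped between genotypes before regeneration and lay higher in HIRA KO after it. The scaffold gene (ENSMUSG00000030909.6) lies on the plus strand at chr7:120173858-120185586. In control before regeneration, libraries held 124, 110.1, 99.4 and 104 CPM of Anks4b, and in HIRA KO 87.4, 107, 100.2 and 117, so the groups overlapped. After regeneration the controls held 63.0, 69.2, 74.1 and 61.2 CPM and the HIRA KO libraries 109.7, 100.2, 79.4 and 91.8, with no overlap. The fitted log2 difference was -0.09 ± 0.12 before and 0.51 ± 0.12 after regeneration, and -0.01 and 0.37 without HIRA KO libraries 1 and 2.

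The remaining members had few reads or followed 1 library. Espn, from the minus strand of chr4:152120331-152152371, was between 0.533 and 1.63 CPM in HIRA KO before regeneration and between 0.83 and 2.74 in control, with a fitted log2 difference of -0.85 ± 0.41. After regeneration its range was 0.952 to 3.04 CPM in HIRA KO and 1.49 to 2.29 in control, so the groups overlapped at both times. Myo1a, a membrane-bound myosin of the brush border, had 79 reads (4.18 CPM) in HIRA KO library 1 before regeneration, 1 read in each of the other 3 libraries of that group, and at most 1 read in any control library. After regeneration it had 8, 2, 1 and 3 reads in HIRA KO. Ush1c, harmonin, the other scaffold of the tip links, had 11 reads in that same library before regeneration and at most 2 in each of the other 15, so no fold change is given for Myo1a or Ush1c.

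Ezr behaved likewise from a higher level. It lies on the minus strand at chr17:6738041-6782784, where Sytl3 overlaps it on the plus strand. HIRA KO library 1 before regeneration held 27.1 CPM of Ezr, while the other 3 held 7.34, 5.23 and 4.82 and controls 4.84 to 6.71. After regeneration the HIRA KO libraries held 16.0, 12.5, 8.77 and 8.57 CPM and the controls 7.87 to 10.5. The fitted log2 difference was 0.97 ± 0.46 before and 0.38 ± 0.45 after regeneration, and without HIRA KO libraries 1 and 2 it was -0.19 and -0.00.

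**Figure D2:**
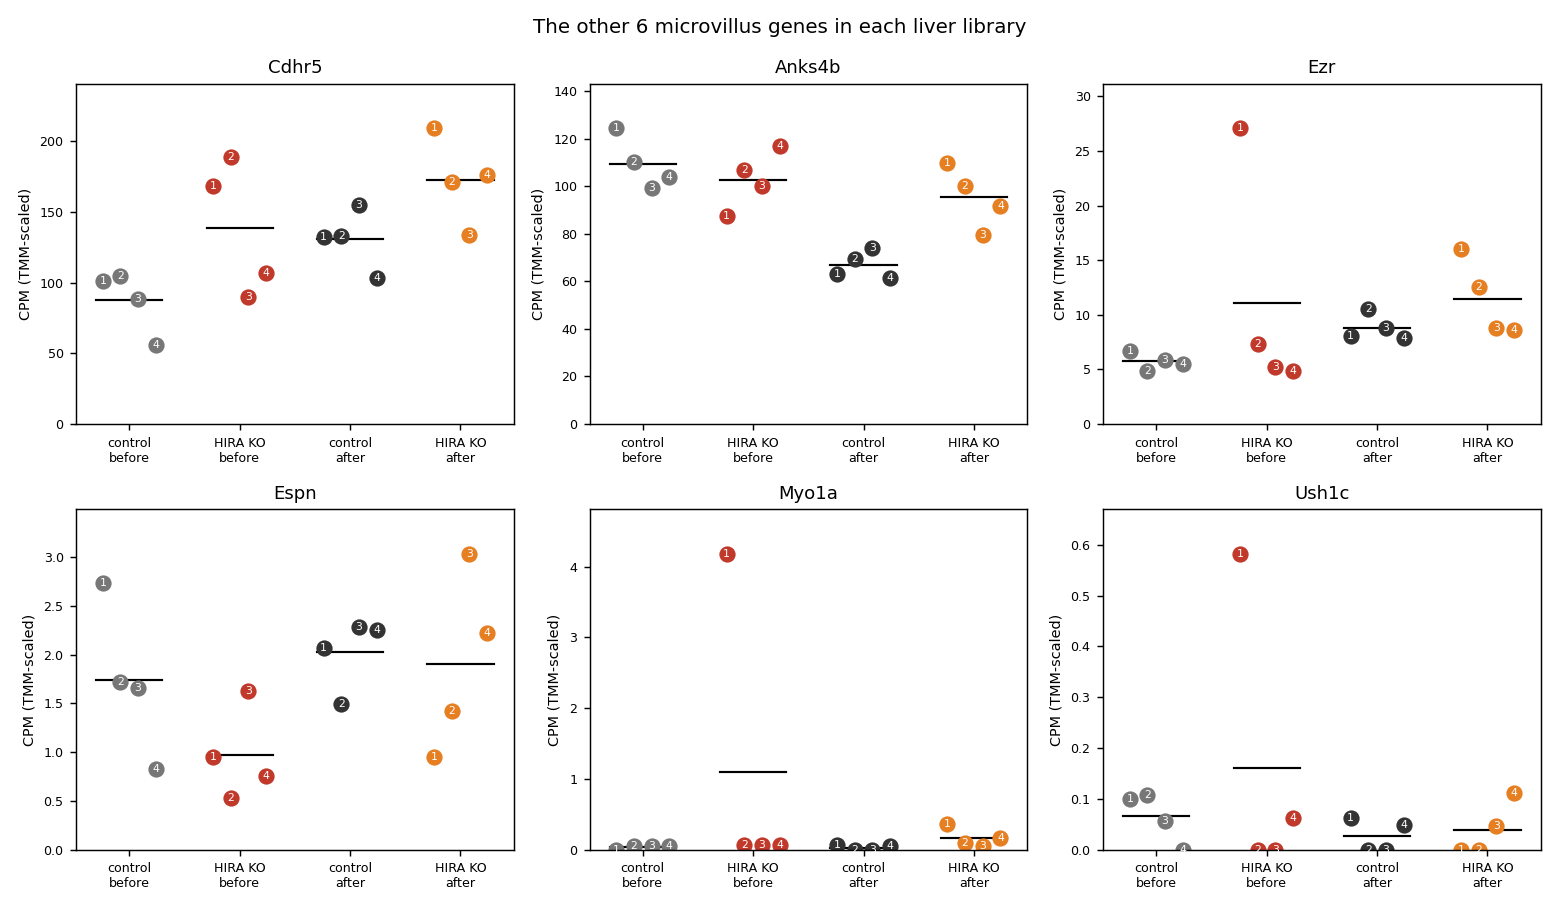
Level in CPM (TMM-scaled, linear axes from 0, each panel on its own scale) of the other 6 members in each library, drawn as in the plot of the 4 genes above; bars are group means. Cdhr5 and Anks4b are abundant in every library, and Ezr, Myo1a and Ush1c each have their highest value, 27.1, 4.18 and 0.582 CPM, in HIRA KO library 1 before regeneration.

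The library with the high Ezr, Myo1a and Ush1c also held more RNA of other microvillus-bearing cells. Cholangiocytes, which line the bile ducts, had 13 markers, of which 12 had reads in this library, and their summed level was 251 CPM there, against 85.9 to 134 in the other 3 libraries of its group and 81.0 to 112 in control before regeneration. Krt19, a duct keratin, was at 52.7 CPM there and at 1.18 to 2.01 in these controls, and Muc1, an apical mucin, at 47.0 and at 1.02 to 1.89. The 8 mesothelial markers (Msln and others of the liver surface) summed to 18.3 CPM there and to between 1.56 and 4.97 in these controls.

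For stellate cells and fibroblasts, whose 11 markers had reads in every library, the sum was 738 CPM in HIRA KO library 1 and 526 in library 2, against 273 and 288 in libraries 3 and 4 and 244 to 273 in control before regeneration. In HIRA KO libraries 3 and 4 before regeneration the cholangiocyte sum was 85.9 and 103 CPM and the mesothelial sum 2.11 and 2.00, both within the control range. Their stellate sums lay slightly above that range. The part of these cells in the level of any member, Cdhr2 and Pls1 included, was not tested.

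After regeneration the cholangiocyte sum was 109 to 149 CPM in control and 111 to 173 in HIRA KO, the mesothelial sum was 5.39 to 7.41 and 3.77 to 14.1, and the stellate sum 196 to 449 and 357 to 528. Of 15 intestinal enterocyte markers, Sis, Cdx1, Cdx2 and Isx had 0 counts in all 16 libraries. Krt20 (55 counts in total) and Cdh17 (17) had few reads and were highest in a HIRA KO library after regeneration, at 0.711 and 0.363 CPM. Alpi had 1 count, in a control library. The summed enterocyte level was 530 to 878 CPM in control and 483 to 904 in HIRA KO before regeneration, 600 to 1302 and 738 to 1600 after it, and the list includes Apoa4 and Mttp, which hepatocytes express. The 10 kidney proximal tubule markers, of which Kap had 0 counts, summed to 93.2 to 131 and 96.2 to 139 CPM before regeneration in control and HIRA KO, and to 61.3 to 120 and 82.1 to 90.8 after it. Most of these sums came from Aqp1, at 91.4 to 119 and 74.2 to 111 CPM before and 58.5 to 116 and 72.0 to 83.6 after regeneration. Lrp2 held 0.533 to 11.7 and 2.82 to 26.3 CPM before and 1.44 to 9.63 and 4.36 to 13.2 after it, with overlap at both times.

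**Figure D3:**
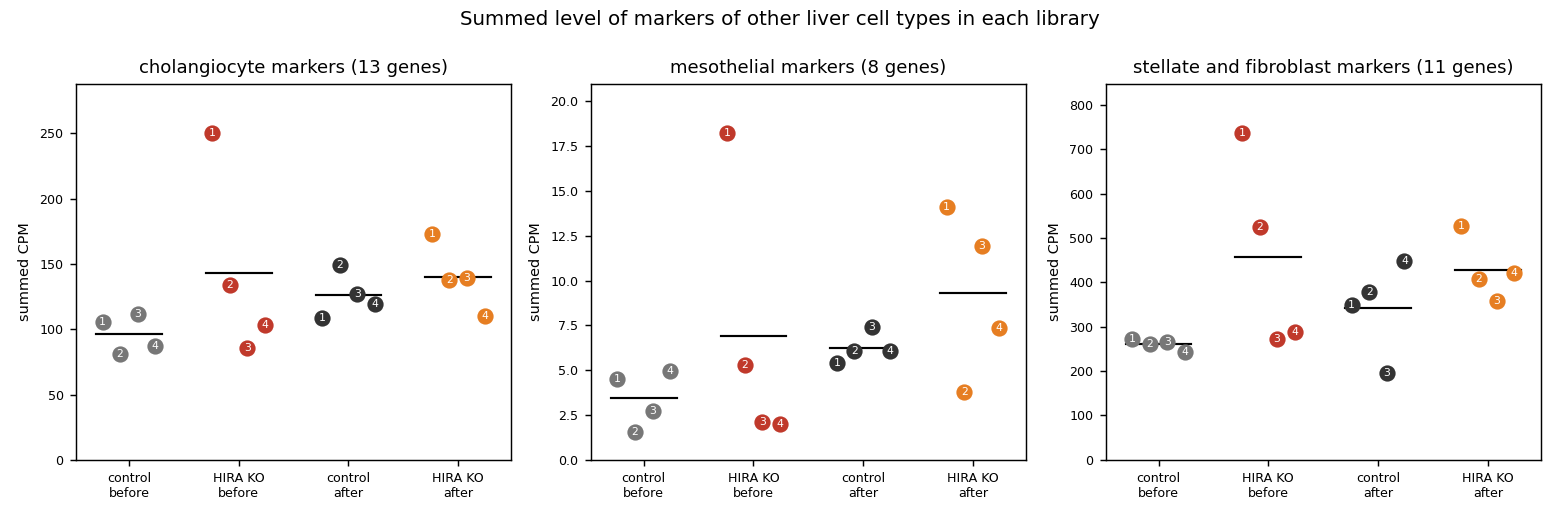
Summed CPM (linear axes from 0) of cholangiocyte, mesothelial, and stellate and fibroblast marker genes in each library, by group; numbers are running numbers and bars are group means. HIRA KO library 1 before regeneration is the highest in all 3 panels, at 251, 18.3 and 738 CPM, and libraries 3 and 4 of that group lie near the controls.

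By the edgeR quasi-likelihood test over all 23018 genes with at least 10 counts in total, a gene was called at a Benjamini-Hochberg adjusted p under 0.05. Between HIRA KO and control before regeneration 1 of the 10 members, Cdhr2, was called, and 0.0391% of all genes were. After regeneration Cdhr2 and Pls1 were called, with 0.491% of all genes. The targeted gene Hira was not called at either time (edgeR, adjusted p = 0.129 before and 0.0666 after regeneration). All 10 members passed the count filter, but Myo1a and Ush1c did so only through HIRA KO libraries. Over the control libraries before and after regeneration Myo1a had 3 and 2 reads, and Ush1c 5 and 2. The groups did not overlap for 4 members before regeneration (Cdhr2, Pls1, Vil1 and Myo1a, against 8.07% of all genes) and for 4 after it (Cdhr2, Pls1, Vil1 and Anks4b, against 8.10%). For Myo1a the gap was one of library size alone: the lowest HIRA KO library (0.0626 CPM) and the highest control library (0.0592 CPM) had 1 read each. The median log2 difference of the members was 1.75 before and 1.43 after regeneration, where that of all genes was 0.01 and 0.02. These medians include Myo1a and Ush1c, whose fold changes rest on few reads. These counts and medians come from the comparisons with which the genes were chosen, so nothing is read from them.

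The call of Cdhr2 before regeneration was lost when HIRA KO library 1 or 2 or control library 1 or 3 was left out, and that of Pls1 after regeneration held in 3 of the 8 fits with 1 library left out. DESeq2, run as an alternative, called Cdhr2, Pls1 and Vil1 before regeneration, with 1.66% of all genes, and these with Myo7b and Anks4b after it, with 3.95% of all genes. With edgeR's own expression filter (filterByExpr), Anks4b was also called after regeneration (adjusted p = 0.0432).

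Regeneration was the change for which the genes had not been chosen, and here Cdhr2 rose in both genotypes and Anks4b fell in control. In control, 2 of the 10 members were called between after and before regeneration, where 10.2% of all genes were, and in HIRA KO 1 was, where 12.0% of all genes were. The groups did not overlap for 3 members in control (Cdhr2 and Ezr higher, Anks4b lower, against 19.0% of all genes) and for 1 in HIRA KO (Cdhr2, against 16.1%). The median log2 change of the members, Myo1a and Ush1c with their few reads included, was 0.40 in control and 0.18 in HIRA KO, beside 0.00 and 0.02 over all genes.

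The tip-link protocadherin Cdhr2 rose by 1.69 ± 0.39 on the log2 scale in HIRA KO (edgeR, adjusted p = 0.0105), or 3.23-fold, and every library after regeneration (5.18 to 15.2 CPM) was above every library before it (1.75 to 4.20). This call was kept in all 8 fits with 1 library left out and in the 9 other settings, with adjusted p between 0.000826 and 0.0429. In control it rose by 1.86 ± 0.55 (edgeR, adjusted p = 0.0397), again without overlap (0.432 to 1.36 after, 0.0592 to 0.323 before). That call rests on few reads, 16 over the 4 libraries before regeneration and 58 after, and held in only 1 of the 8 fits with 1 library left out, with adjusted p between 0.0383 and 0.138. The difference between the changes in HIRA KO and control was -0.17 ± 0.59 on the log2 scale (edgeR, adjusted p = 0.98).

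Anks4b fell by 0.71 ± 0.12 on the log2 scale in control (edgeR, adjusted p = 0.00165), from 99.4 to 124 CPM before to 61.2 to 74.1 after regeneration, that is to 0.611 of its former level. This was called in all 8 fits with 1 library left out, with log2 changes between -0.76 and -0.64, and in the 9 other settings. In HIRA KO the values before (87.4 to 117 CPM) and after (79.4 to 109.7 CPM) overlapped, and the log2 change was -0.11 ± 0.12 (edgeR, adjusted p = 0.62), or -0.33 ± 0.14 without HIRA KO libraries 1 and 2 (edgeR, adjusted p = 0.16). The difference between the genotypes' changes, 0.60 ± 0.17 on the log2 scale, had an unadjusted p of 0.00267 in edgeR and did not pass adjustment over all genes (adjusted p = 0.41). Without HIRA KO libraries 1 and 2 it was 0.39 ± 0.18 (edgeR, adjusted p = 0.66).

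The other members were not called in either genotype. Pls1 had log2 changes of 0.82 ± 0.61 (control) and 0.77 ± 0.50 (HIRA KO), with overlapping libraries in both, and the change in HIRA KO was -0.03 without libraries 1 and 2. For Cdhr5 the values were 0.58 ± 0.24 and 0.32 ± 0.23, and for Myo7b 1.41 ± 1.12 and 2.05 ± 0.90, again with overlap. Vil1, Myo1a and Ush1c overlapped between the times in both genotypes. Espn had 0.98 ± 0.41 in HIRA KO (edgeR, adjusted p = 0.13), with 0.952 to 3.04 CPM after and 0.533 to 1.63 before regeneration.

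Ezr was higher after regeneration than before in every control library (7.87 to 10.5 against 4.84 to 6.71 CPM), with a log2 change of 0.62 ± 0.46 that was not called (edgeR, adjusted p = 0.47). Fitted on only the groups compared, the same change had a standard error of 0.16 and was called (edgeR, adjusted p = 0.0177). In HIRA KO its change was 0.04 ± 0.44. Library 1 before regeneration, which stood apart, decided this value: without that library the change was 1.00 and was called (edgeR, adjusted p = 0.0085). Without HIRA KO libraries 1 and 2 at both times, Ezr was called in control (log2 change 0.62, adjusted p = 0.00724) and in HIRA KO (0.80, adjusted p = 0.0233) by edgeR.

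**Figure D4:**
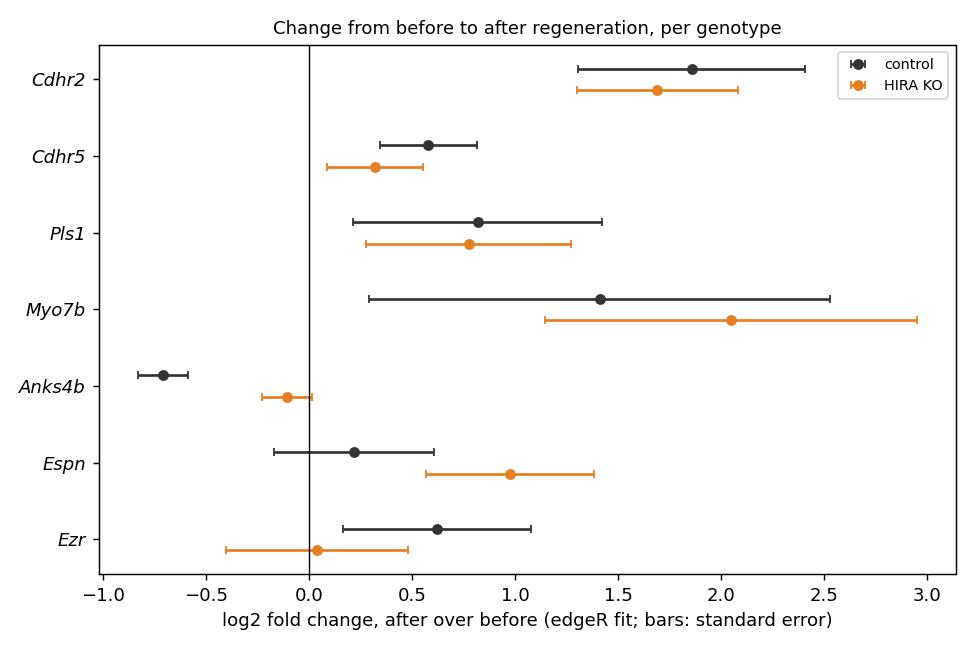
Log2 fold change from before to after regeneration (edgeR fit, 4 libraries a group; bars are standard errors) of 7 members (without Vil1, Myo1a and Ush1c, which had under 10 reads in every control library), in control and in HIRA KO. Cdhr2 lies above 0 in both genotypes (1.86 and 1.69) and Anks4b below 0 in control (-0.71), while its value in HIRA KO, -0.11, is within 1 standard error of 0.

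No member had a HIRA KO effect that was called as different after and before regeneration: edgeR called 0 of 10 members and 0% of all genes, with 1 member (Anks4b) and 1568 genes at an unadjusted p under 0.05, and DESeq2 called 0 members and 67 genes (0.291%). For Pls1 the difference of effects was -0.04 ± 0.73 on the log2 scale. A 2-fold difference in either direction lies within 2 standard errors of that value and was not detectable at this spread.

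Of 40 other brush border and microvillus genes, 39 were tested. None was called between HIRA KO and control by edgeR before or after regeneration, where 0.0391% and 0.491% of all genes were. At an unadjusted p under 0.05 there were 11 of the 39 before regeneration and 10 after it, beside 3031 and 3629 of all 23018 genes. DESeq2 called 2 before regeneration, Myo5a and Slc9a3r2, beside 1.66% of all genes. After it DESeq2 called 4, Slc9a3r2, Baiap2l1, Rab11a and Stxbp2, beside 3.95% of all genes. With regeneration 4 of the 39 (10.3%) rose in control and none fell, a share close to the 10.2% over all genes. These 4 were Stk10, a kinase of ezrin family proteins, Msn (moesin, the relative of ezrin), Actb and Myo1c. The log2 change of Stk10 was 1.22 ± 0.16 for control and 1.21 ± 0.16 for HIRA KO, and Msn 0.81 ± 0.16 and 0.63 ± 0.16. In HIRA KO 3 rose and 3 fell (15.4% of the 39, beside 12.0% of all genes). Those that rose were Stk10, Msn and Calml4, a calmodulin-like partner of Myo7b, which rose by 2.00 ± 0.37 (edgeR, adjusted p = 0.00246). Among those that fell were Pdzk1, an apical scaffold, by 0.58 ± 0.13 (edgeR, adjusted p = 0.0074), and Myo1e.

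Calml4 stood at 0.484 to 0.696 CPM in control before regeneration and at 0.981 to 1.83 after it, and in HIRA KO at 0.204 to 0.688 before and 1.17 to 3.13 after, without overlap in either genotype. In control its log2 change was 1.13 ± 0.36 (edgeR, adjusted p = 0.0568), which was called in 6 of the 9 other settings, DESeq2 and only the groups compared among them, and in none of the 8 fits with 1 library left out (adjusted p over all these between 0.0236 and 0.149). The difference between the genotypes' changes, 0.87 ± 0.52 on the log2 scale, was not called (edgeR, adjusted p = 0.78), and the HIRA KO and control libraries overlapped at both times.

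Among 18 tested relatives of the members, such as the stereocilia cadherins and the other plastins and villins, none was called between genotypes by edgeR (0 at an unadjusted p under 0.05 before and 5 after regeneration, 0 and 1 called by DESeq2, the latter Lcp1). Of all 23018 genes, 3031 and 3629 were at an unadjusted p under 0.05 by edgeR, and DESeq2 called 1.66% and 3.95%. The leukocyte myosins Myo1f and Myo1g rose with regeneration in both genotypes, Lcp1, the leukocyte plastin, rose in control, and Gsn, the actin-severing gelsolin, fell by 1.61 ± 0.43 on the log2 scale in HIRA KO (edgeR, adjusted p = 0.0281). Summed leukocyte markers were at 129 to 285 CPM in control before regeneration and at 280 to 373 after it, and in HIRA KO at 171 to 301 and 381 to 425, and their part in these changes was not tested.

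The hepatocyte canaliculus, the apical face that carries its microvilli, was described by 24 genes, all tested. None was called between genotypes before regeneration by edgeR (3 at an unadjusted p under 0.05, beside 3031 of all 23018 genes, 0 called by DESeq2). After regeneration 10 of the 24 were at an unadjusted p under 0.05, beside 3629 of all genes, and 16.7% were called, beside 0.491% of all genes. Of the called genes, 3 were lower in HIRA KO, the tight junction gene Cldn1 (-0.78 ± 0.13), the adhesion molecule Ceacam1 (-0.72 ± 0.14) and the export pump Abcc2 (-0.80 ± 0.16), and 1 was higher, Ggt1, gamma-glutamyltransferase (3.11 ± 0.58, edgeR adjusted p between 0.0276 and 0.0392 for the 4 genes). With 1 library left out, Cldn1 stayed called in 3 of the 8 fits, and Ceacam1, Abcc2 and Ggt1 in 2 each. Without HIRA KO libraries 1 and 2 the log2 differences were -0.71 for Cldn1, -0.49 for Ceacam1, -0.59 for Abcc2 and 2.01 for Ggt1, each in the same direction. None of the 4 was then called (edgeR, adjusted p between 0.165 and 0.200), in a fit with fewer libraries.

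Ggt1 had 19 to 73 reads in HIRA KO libraries 1 to 3 after regeneration and 10 in library 4, or 3.31, 1.60, 0.901 and 0.557 CPM, and at most 4 reads in each other library. With regeneration Slc47a1 fell in both genotypes, Cldn1 rose in control, and in HIRA KO Ceacam1 fell and Ggt1 rose.

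The genes whose level ran most like that of Cdhr2 over the 16 libraries, by Pearson correlation of log2(CPM + 1) among 13176 genes with a mean of at least 1 CPM over all libraries, were Scamp5 (0.930), C1ql4 (0.921), Bc1 (0.910), Nudt18 (0.901) and Kctd17 (0.899). For Pls1 they were Cyp2d41-ps (0.933), H3f3a (0.929), C1ql4 (0.909), Car14 (0.907) and Slc2a4 (0.905). C1ql4 is thus in both sets, and Cdhr2 and Pls1 correlated with each other at 0.895. In control the mean of C1ql4 was 0.383 CPM before and 0.448 after regeneration, and that of Slc2a4 0.737 and 0.590. These genes therefore reached the mean of 1 CPM only through the HIRA KO libraries, and nothing is read from their likeness. The points share the group difference that named the members: after the group means were removed, Cdhr2 and Pls1 correlated at 0.486, and the 10 pairs above at 0.522 to 0.837. Among the members, those most like Cdhr2 within groups were Myo7b (0.838), Vil1 (0.783) and Cdhr5 (0.680). Removing group means leaves the division of HIRA KO libraries 1 and 2 from 3 and 4 in place. Before regeneration the ratio of these 2 pairs was 1.77 for Cdhr2, 9.84 for Myo7b, 10.4 for Vil1 and 1.82 for Cdhr5. How far the correlations rest on this division was not tested. Espn ran the other way from both, at -0.469 with Cdhr2 and -0.469 with Pls1 within groups. These values describe 16 libraries of 4 groups and carry no test.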

How the data were processed

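Per the study's methods, the authors trimmed reads with Trim Galore where needed, aligned them to mm10 with STAR and counted them per gene with HOMER, while the labels also list HTSeq and Cufflinks with no role given. The annotation release and the use of strand are not given in the sources used here, and the library kit marks strand. The deposited counts are whole reads per gene, and the deposited FPKM were scaled by length and depth by a tool that is not named, with empty cells read as 0. All columns of both tables were mapped to a group.

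The 10 members and the gene lists were chosen with earlier results of these data known. All 10 members are named in every comparison. Of the lists of other brush border genes, relatives of the members and canalicular genes, called genes are named, at most 5 per list and comparison by p, and for Cdhr2 and Pls1 the 5 genes most alike. The result of 1 canalicular gene is not reported here.

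Genes with at least 10 counts over the 16 libraries were fitted in 1 edgeR model (version 4.0.16, R 4.3.3; TMM, 4 group means, robust quasi-likelihood test, Benjamini-Hochberg adjustment), which was tested on simulated data. A standard error was approximated from each log2 fold change and its F statistic, as their ratio after taking the root of F. Fold changes of low genes depend on the prior count. CPM use TMM-scaled library sizes. Alternatives were DESeq2 (1.42.0), limma (3.58.1) on log2(FPKM + 0.1) and log2(FPKM + 1), RLE factors, other filters, a non-robust fit, only the groups compared, leaving out each library and, added after seeing the data, HIRA KO libraries 3 and 4 only. Among the 24 pairs of libraries within groups, the chi-square per degree of freedom of their counts was 12.4 to 135, so none was 1 library deposited under different names. Depth limits what can be said of genes with few reads. Annotation was GENCODE M21 on GRCm38, where Myo7b and Ush1c differ in ID version, and promoters were from RefSeq.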

Additional observations from a re-analysis of the deposited data

Results flagged for a closer look

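In 5 of the 40 combinations of a member and a group, the highest or lowest library stood apart from the other 3 by Dixon's test, where chance flags about 1 in 20. HIRA KO library 1 before regeneration was high for Ezr, at 27.1 CPM with the next library at 7.34, for Myo1a, at 4.18 CPM with the next at 0.068, and for Ush1c, at 0.582 CPM with the next at 0.0626. HIRA KO library 3 before regeneration was low for Pls1, at 5.23 CPM with the next library at 9.27, which is still above every control library. Control library 1 before regeneration was low for Myo1a, at 0 CPM, where the other 3 had 1 read each, so that gap is a single read.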

How the results depend on the processing

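No paired analysis was possible because the columns carry only the group and a running number that is in no label, so the replicate numbers, approach and mouse of the labels could not be assigned to them and no replicate block was run. The fold changes of Anks4b in control and Calml4 in HIRA KO kept their calls in all settings, as did Cdhr2 with regeneration in HIRA KO. Between HIRA KO and control before regeneration, the count of members called was 1, with 3 by DESeq2, 2 with only the groups compared, 0 by limma on log2(FPKM + 1), and 0 to 1 with a library left out. After regeneration it was 2, with 5 by DESeq2, 3 with the filterByExpr filter (Anks4b added), 0 with only the groups compared, 1 by limma on log2(FPKM + 1), without a filter and with HIRA KO libraries 3 and 4 only, and 1 to 3 with a library left out. With regeneration in control it was 2, with 3 with only the groups compared and with HIRA KO libraries 3 and 4 only (Ezr added in both), 1 in both limma fits and without a filter (Anks4b in each) and 1 to 2 with a library left out, and in HIRA KO 1, with 2 for HIRA KO libraries 3 and 4 only and 1 to 2 with a library left out. The cause was not tested.

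HIRA KO libraries 3 and 4 alone turned the log2 difference of Myo7b (-0.21) and Ezr (-0.19) before and of Ezr (-0.0036) after regeneration, and the change of Pls1 in HIRA KO (-0.035). In limma on log2(FPKM + 0.1) and log2(FPKM + 1) the change of Anks4b in HIRA KO was 0.00025 and 0.00051, and the difference of effects was 0.67 and 0.66 for Cdhr2 and 0.030 and 0.25 for Pls1. With a library left out, the change of Ezr in HIRA KO ran from -0.21 to 1.00, and the difference of effects from -0.52 to 0.23 for Cdhr2 and from -0.41 to 0.60 for Pls1.

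Over the other 3 lists together, genes called before regeneration between genotypes were 2 by DESeq2. After it they were 10 by DESeq2, 2 in both limma fits, 0 with only the groups compared and with HIRA KO libraries 3 and 4 only, and 0 to 8 with a library left out. With regeneration in control they were 22 with HIRA KO libraries 3 and 4 only, 18 with only the groups compared and 3 to 12 with a library left out, and in HIRA KO 20 by DESeq2, 7 with only the groups compared and 7 to 14 with a library left out. Hira was at 56.5% to 63.7% of control before and 55.8% to 64.8% after regeneration with a library left out, where 3 against 4 cannot reach the threshold. Depth limits Myo1a, Ush1c and, in control, Cdhr2, Vil1 and Myo7b.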
